A study of Sus scrofa with 61 samples.

Results

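The hepatic expression of 3 erythroid genes, AHSP, HBM and RHCE, was followed in porcine offspring of dams on a low protein diet (LP offspring). The genes were chosen from these same data because their signal was lower in newborn than in fetal liver, so their values at 94 days post conception (dpc) and at 1 day postnatum (dpn) describe that choice and carry no test. All probe-sets that the array annotation maps to 1 of the 3 symbols were taken. These were 3 probe-sets of the 23999 on the array that are not controls, or 3 genes of 6765 annotated symbols.

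All groups were livers of German Landrace offspring whose mothers, pregnant for the first time, received the LP diet during gestation, with 1 animal per array. The 61 arrays comprised 16 fetuses at 94 dpc, 14 piglets at 1 dpn, 15 weaners at 28 dpn and 16 pigs at 188 dpn. Adjacent stages define period I (1 dpn against 94 dpc), period II (28 dpn against 1 dpn) and period III (188 dpn against 28 dpn). Fetuses came from Caesarean section in an experiment of their own and the later animals from farrowed litters, and in period I the experiment and the stage cannot be told apart. Weaners and 188 dpn pigs were fasted overnight and bled at slaughter, which was not described for the other stages, and piglets were nursed after birth by sows on adequate diets. Sib pairs of 1 litter were selected at each stage, a light and a heavy sib at 94 dpc and 1 dpn only. The labels do not tell which arrays are sibs, and p-values that treat all animals as independent may be too small. Offspring of adequately fed dams were not analysed here.

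In the mammalian fetus the liver is a main site of red cell formation, and this task passes to the bone marrow around birth. Erythroblasts build haemoglobin from globin chains and haem, renew their membrane proteins and lose their nucleus, with erythropoietin as the hormone that keeps their precursors alive. AHSP is the chaperone that binds free alpha-globin chains until they pair. HBM is mu-globin, a member of the alpha-globin gene cluster known from human erythroid cells. RHCE carries Rh blood group antigens on the human red cell membrane. In whole liver, fewer cells of a type and less RNA per cell cannot be told apart.

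Each of the 3 genes was represented by 1 probe-set. In the pig RefSeq annotation (assembly Sscrofa11.1) HBM is the neighbour of HBZ, the embryonic zeta-globin gene, on chromosome 3, where AHSP also lies, and RHCE lies on chromosome 6 between TMEM50A and TMEM57. The array annotation and RefSeq give AHSP under different gene identifiers, so this gene was matched by symbol alone.

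Signals were scaled by the authors to a common trimmed mean of 500.1 to 500.2. Array medians were lower at later stages (166, 149, 117 and 101, each the middle value of its stage, from 94 dpc to 188 dpn), and the array median served as the lower limit for calling a probe-set measured. All 10 hepatocyte genes with a probe-set were above it in at least 50% of the animals of each stage. The 3′ to 5′ difference of control transcripts, a sign of RNA quality, was outlying on 6 arrays, and for beta-actin its stage median was 2.13, 1.75, 3.91 and 3.98 on the log2 scale from 94 dpc to 188 dpn. Its part in differences between stages was not tested.

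AHSP had its highest signal in fetal liver. The lowest, median and highest log2 signals of the fetuses were 8.94, 11.87 and 13.32. They were 5.61, 8.41 and 10.05 at 1 dpn, 6.64, 8.54 and 9.69 at 28 dpn and finally 8.40, 9.47 and 10.67 in pigs of 188 dpn. It exceeded the array median in 16 of 16 fetuses, in 9 of 14 newborn piglets, in 14 of 15 weaners and in 16 of 16 pigs at 188 dpn. The mean was 8.00 ± 1.25 at 1 dpn (SD, n = 14) and 11.81 ± 1.26 at 94 dpc (n = 16), a log2 difference of −3.81 (SE 0.46) or a 14.0-fold lower signal at 1 dpn. Below the lowest fetus lay 11 of 14 piglets. Of all tested probe-sets 67.7% were called in period I, a background from which nothing is read for genes chosen on this period. In period II the mean was 8.35 ± 1.1 at 28 dpn (n = 15) and 8.00 ± 1.25 at 1 dpn, and the difference of 0.35 (SE 0.44) was smaller than the spread among animals. Weaners were unevenly spread, with 6 of 15 at or below 7.40 and the other animals at or above 8.30.

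HBM also had its highest signal in fetuses and its lowest at 1 dpn. Its lowest, median and highest log2 signals were 9.39, 11.51 and 12.63 in fetuses, 7.64, 8.80 and 9.49 in newborn piglets, 9.29, 9.93 and 10.54 in weaners and 9.50, 10.06 and 11.11 in pigs of 188 dpn. It was above the array median on all 61 arrays. At 1 dpn the mean was 8.66 ± 0.57 (SD, n = 14), against 11.48 ± 0.99 at 94 dpc (n = 16), a log2 difference of −2.81 (SE 0.29) or a 7.03-fold lower signal. At 28 dpn it was 9.98 ± 0.36 (n = 15), against 8.66 ± 0.57 at 1 dpn, a difference of 1.32 (SE 0.18), and 13 of 15 weaners lay above every newborn piglet. In period II 70.3% of all tested probe-sets were called, and 4.09% had stage ranges without overlap in the higher and 5.8% in the lower direction. The levels at 188 dpn and 28 dpn were neighbours that did not differ beyond their spread.

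RHCE was measured above the array median almost only before birth. The lowest, median and highest log2 signals were 8.41, 10.75 and 12.22 in fetuses, 1.67, 6.19 and 7.54 in newborn piglets, 4.25, 6.04 and 6.90 in weaners and 2.55, 5.80 and 6.79 in pigs of 188 dpn. It exceeded the array median in 16 of 16 fetuses, in 1 of 14 piglets, in 1 of 15 weaners and in 0 of 16 pigs at 188 dpn. The mean was 5.79 ± 1.55 at 1 dpn and 10.62 ± 1.21 at 94 dpc, a log2 difference of −4.83 (SE 0.51), and all piglets lay below all fetuses. Of all tested probe-sets in period I, 4.32% had stage ranges without overlap in this direction and 3.38% in the other. With signals below the array median raised to that median, the RHCE difference was −3.37, since low signals on these arrays have no reliable order. The 3 postnatal stages of RHCE did not differ beyond their spread, with differences of 0.10 (SE 0.45) at 28 dpn against 1 dpn and −0.22 (SE 0.31) at 188 dpn against 28 dpn.

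**Figure D1:**
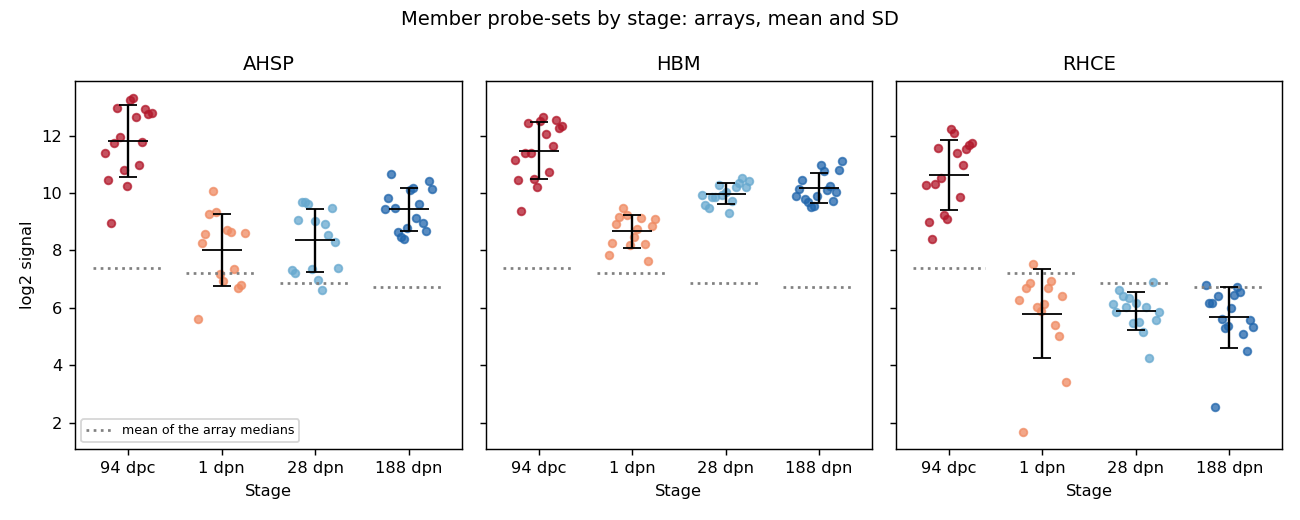
Log2 signal (y axis) of the AHSP, HBM and RHCE probe-sets in each liver (points) at the 4 stages (x axis), with the stage mean and SD as black bars and the mean of the array medians as a dotted line. AHSP and HBM were lowest at 1 dpn and stood higher at 188 dpn, whereas RHCE lay near or below the dotted line at every stage after birth.

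Period III used no array of the comparison that chose the genes and was therefore tested. AHSP was higher at 188 dpn, with 9.43 ± 0.74 (SD, n = 16), than at 28 dpn, with 8.35 ± 1.1 (n = 15). The log2 difference of 1.08 (SE 0.32) passed the limma test over all probe-sets (q = 0.00157), and 6 of 16 pigs at 188 dpn lay above every weaner. In this period 53.9% of 10992 tested probe-sets were called, 18.3% higher and 35.7% lower, at P and q at or below 0.05. HBM had 10.17 ± 0.51 at 188 dpn and 9.98 ± 0.36 at 28 dpn, a difference of 0.19 (SE 0.16, q = 0.0922 by limma) that did not pass. With array medians subtracted, which removes the shift of the whole array, the HBM difference was 0.35 and passed (q = 0.0269). RHCE was not tested because it stayed below the filter on low signals.

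Within stages the 3 genes varied between animals. The highest fetus had 20.7 times the AHSP signal of the lowest, 9.50 times the HBM signal and 14.0 times the RHCE signal. At 1 dpn these ratios were 21.8 for AHSP, 3.61 for HBM and 58.4 for RHCE, the last over signals mostly below the array median. Fetus 3 was the lowest in all 3 genes. Fetus 10 had the highest AHSP and HBM signals and fetus 9 the highest RHCE signal. The same 7 of 16 fetuses held the top 7 places for each gene and the same 5 of 16 the bottom places. The order of animals had not chosen the genes, so its agreement between genes was tested over 12 pairs and stages.

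At 94 dpc the correlation over 16 fetuses was r = 0.992 (Spearman's rho 0.988) between AHSP and HBM. It was r = 0.978 (rho 0.968) between AHSP and RHCE and r = 0.983 (rho 0.953) between HBM and RHCE. Each had a permutation p of 1e-05, the smallest that 100000 permutations can give, and an adjusted p of 4e-05. Without the 2 fetuses farthest from the median, r was 0.988, 0.982 and 0.979 for these pairs in the same order, so the relations did not rest on the extreme animals. Regression on the array median and the 3′ to 5′ differences left them at 0.994, 0.984 and 0.984.

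After birth AHSP and HBM still varied together at 1 dpn and at 188 dpn. Over 14 piglets at 1 dpn r was 0.848 (rho 0.864, adjusted permutation p 0.000696), and 0.779 without the 2 farthest piglets. Over 16 pigs at 188 dpn r was 0.842 (adjusted permutation p 0.00012), and 0.861 without the 2 farthest pigs. Over 15 weaners at 28 dpn the relation did not pass, with r = 0.373, and after regression on the array measures it was 0.602 (adjusted permutation p 0.0336). Differences in r between stages were not tested. AHSP itself had r = 0.616 with the 3′ to 5′ difference of GAPDH at 28 dpn, which failed the adjustment over 48 relations between members and array measures (adjusted permutation p 0.332), as did all others.

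RHCE, whose signal was then below the array median in nearly all animals, had no Pearson correlation with the other genes past the adjusted threshold after birth. Its r with AHSP was 0.142 at 1 dpn, 0.514 at 28 dpn and 0.186 at 188 dpn, and with HBM 0.361, 0.023 and 0.212. At 28 dpn the rank correlation with AHSP was 0.707 (adjusted permutation p 0.00854). It did not pass after regression on the array measures (0.143) or with low signals raised to the array median (0.396). Under the other settings it passed (0.637 to 0.711). At 1 dpn Pearson's r with AHSP was 0.587 (adjusted permutation p 0.0389) with low signals raised to the array median. Only piglet 21, the highest in both genes, had RHCE above that median, so the raised RHCE values of all other piglets are array medians.

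**Figure D2:**
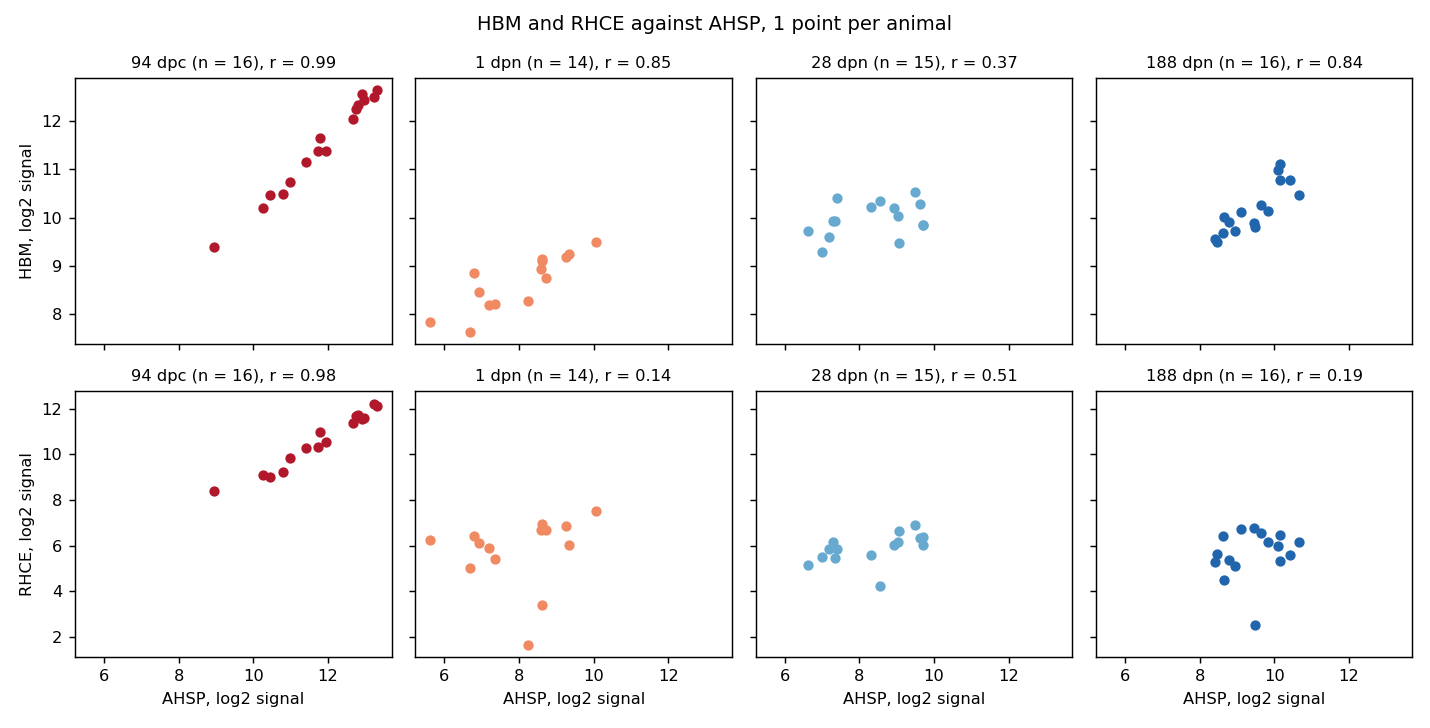
Log2 signal of HBM (upper row) and RHCE (lower row) against the log2 signal of AHSP (x axis), 1 point per animal, in 1 panel per stage with the number of animals and Pearson's r. The fetuses fall along a line in both rows, while after birth only HBM kept r above 0.8 with AHSP, at 1 dpn and 188 dpn.

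The remaining erythroid genes were described in 6 lists by role. Of the genes listed, 44 had a probe-set with 1 symbol, among them 2 globins. The probe-sets for HBB, ALAS2, KLF1, EPOR and TFRC served as erythroid markers. HBA, SLC4A1 and GATA1 had no such probe-set and were not analysed here.

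In period I, 20 of 35 tested erythroid genes fell (57.1%) and 7 rose (20.0%). Among all 12257 tested probe-sets 41.6% were lower and 26.1% higher at 1 dpn. The median log2 change was −0.54 over the erythroid genes and −0.16 over all probe-sets. Scaling moved the split over all probe-sets, with 3197 higher and 5101 lower as deposited, 3820 and 4266 after quantile normalisation and 4149 and 4008 with array medians subtracted. The erythroid genes gave 8 higher and 19 lower after quantile normalisation and 9 and 19 with array medians subtracted. The filter on low signals was met by 7 of 9 receptor and signalling genes at 94 dpc and by 5 of 9 at 1 dpn. For a gene that entered through 94 dpc alone, such as KLF1, the filter favoured a fall, and for EPO, which entered through 1 dpn alone, a rise. With low signals raised to the array median all 27 called erythroid genes were still called in the same direction.

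HBB, the beta-globin chain of adult haemoglobin, had a mean log2 signal of 7.55 ± 0.37 at 1 dpn and 8.70 ± 0.33 at 94 dpc, and fell by 1.15 (SE 0.13, q = 7.99e-10 by limma). Its probe-set gave a low signal, on average 1.33 log2 above the array median at 94 dpc and 0.33 at 1 dpn. AHSP lay 4.44 above that median at 94 dpc, so HBB was a weak marker here. HBE1, the embryonic epsilon chain, was at 5.57 ± 1.09 and 6.50 ± 1.09 and was below the filter in this period.

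Of 8 tested genes of haem synthesis 5 fell and 2 rose. ALAS2, which starts haem synthesis in erythroid cells, had 8.67 to 11.00 at 1 dpn and 9.89 to 13.18 at 94 dpc on the log2 scale, and its mean fell by 2.03. FECH, which inserts iron into the ring, had 10.50 to 11.08 at 1 dpn and 11.39 to 13.33 at 94 dpc and fell by 1.55, with no overlap of the ranges. SLC25A37, the iron carrier mitoferrin-1, fell by 1.40. PPOX, the enzyme before FECH, fell by 1.33, but averaging its 2 probe-sets gave −0.23, which did not pass (q = 0.0615 by limma). ALAD, the enzyme after ALAS2, rose by 0.35 and the glycine carrier SLC25A38 by 0.30. The call of ALAD was lost after quantile normalisation (0.33) and when the arrays of these stages with outlying RNA quality were left out (0.30). SLC25A38 was at 0.50 and 0.57 after quantile normalisation and with its 2 probe-sets averaged.

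Of the red cell membrane list 3 of 4 tested genes fell. AQP1, the water channel of red cells and of vessel walls, fell by 2.34, and the membrane skeleton genes ADD1 and DMTN fell by 0.54 and 0.51. All 3 tested transcription factors fell, KLF1 by 1.91, LDB1 by 1.06 and LMO2 by 0.67. KLF1 was above the array median in 6 of 14 piglets, and with low signals raised to that median its difference was −1.49. KLF1 activates globin and haem genes, while LDB1 and LMO2 are partners of the GATA factors.

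Of 7 tested receptors and signalling genes 3 fell, and EPO and SLC11A2 rose. The erythropoietin gene had a mean of 7.49 ± 1.59 at 1 dpn and 4.03 ± 1.46 at 94 dpc, a rise of 3.45 (SE 0.52, q = 2.11e-07 by limma). All fetal values, 2.02 to 6.65, lay below the array median, and with low signals raised to that median the rise was 0.54 and still passed. SLC11A2, an iron transporter, rose by 1.04. The EPO receptor gene EPOR fell by 1.38 (−1.44 to −0.94 over 12 alternative settings), the stem cell factor receptor KIT by 1.1 and the kinase JAK2 by 1.08. With the array median as floor KIT was at −0.45 and JAK2 at −0.34, both still called. The transferrin receptor TFRC had 7.07 ± 1.96 at 1 dpn and 7.86 ± 1.19 at 94 dpc and did not pass. Of the red cell enzymes and maturation genes 5 of 12 fell, led by BNIP3L, which clears mitochondria from reticulocytes (−1.56), and BPGM, which makes the effector of oxygen release 2,3-bisphosphoglycerate (−1.23). In the same list GPX1 rose by 1.21 and SELENBP1 by 1.05, and both are also expressed in hepatocytes.

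In period II, 18 of 32 tested erythroid genes rose (56.2%) and 10 fell (31.2%). Of all 12146 tested probe-sets 28.9% were higher and 41.4% lower at 28 dpn, or 3511 and 5031. After quantile normalisation 4336 were higher and 4121 lower, and 6020 and 2886 with array medians subtracted. The median change was 0.39 over the erythroid genes and −0.14 over all probe-sets. With array medians subtracted 22 erythroid genes rose and 4 fell.

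Haem synthesis rose in 6 of 7 tested genes, with ALAD up by 1.86, the porphyrin transporter ABCB6 by 1.26, ALAS2 by 1.11 and SLC25A37 by 0.91. Over the weaners their r with the mean of standardised AHSP and HBM was −0.105, 0.017, 0.482 and 0.126, in the same order. Which liver cells carried these rises was not tested. ALAS2 had a mean of 10.99 ± 0.65 at 28 dpn and 9.88 ± 0.87 at 1 dpn. AQP1 rose by 1.04, and the protein 4.1 gene EPB41 by 0.40, though averaging its 2 probe-sets gave −0.46. EPOR rose by 0.56, but was at 0.09 and not called with the array median as floor. STAT5A, which relays the EPO signal, rose by 0.96, but gave a change of −0.003 as the mean of its 3 probe-sets. EPO was lower, at 3.29 ± 1.56 at 28 dpn and 7.49 ± 1.59 at 1 dpn, and TFRC was lower by 3.76, and all weaners were then under the array median in both genes. With that median as floor the differences were −1.03 for EPO and −0.91 for TFRC, both still called. Of the last list FAM210B, a mitochondrial protein that aids haem synthesis in erythroid cells, rose by 1.14, SELENBP1 rose by 0.82, the glucose transporter SLC2A1 fell by 0.82 (−0.47 with array medians subtracted) and UBAC1 by 0.68. Averaging its 2 probe-sets left UBAC1 at −0.10, which was not called, and such averages were 0.74 for ABCB6 and 0.48 for AQP1. HBB had 7.48 ± 0.51 at 28 dpn and 7.55 ± 0.37 at 1 dpn and did not pass (q = 0.119 by limma).

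In period III, 10 of 29 tested erythroid genes rose (34.5%) and 7 fell (24.1%), with a median change of 0.14, against −0.13 over all probe-sets, of which 2009 were higher and 3919 lower. After quantile normalisation 2740 of all probe-sets were higher and 2760 lower, and 3630 and 2467 with array medians subtracted. With array medians subtracted 16 erythroid genes rose and 4 fell. AQP1 rose by 1.23, SELENBP1 by 1.13 and ALAD by 0.91, while BPGM fell by 0.71 and SLC11A2 by 0.70. ALAS2, with 11.13 ± 0.64 at 188 dpn and 10.99 ± 0.65 at 28 dpn, did not pass (q = 0.175 by limma), nor did HBB with a difference of −0.33 and HBE1 with 0.47. The ranges of AQP1, ALAD and SLC11A2 did not overlap between these stages, which held for 0.509% of all tested probe-sets in the higher and 0.855% in the lower direction.

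**Figure D3:**
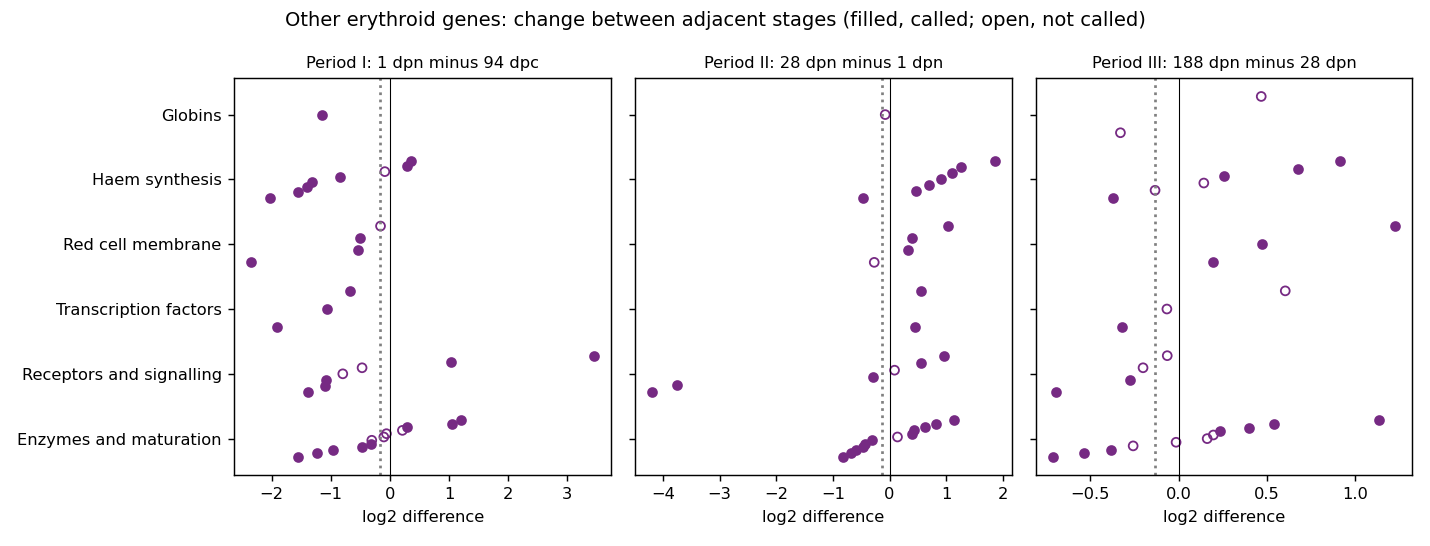
Log2 difference (x axis, its range differs between panels) of the tested genes of the 6 erythroid lists (rows) in periods I, II and III, with called genes filled, others open, and the median of all tested probe-sets as a dotted line. In period I 20 of 35 genes were called lower, and in period II 18 of 32 were called higher. EPO is the point at 3.45 in period I, which is 0.54 with low signals raised to the array median.

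Lists of other blood cells and of dividing cells were counted in the same periods. Of the granulocyte list 4 of 8 tested genes fell in period I and 7 of 7 in period II, where 41.6% and 41.4% of all tested probe-sets were lower. The filter on low signals was met by 7 of 8 granulocyte genes at 1 dpn and by 2 of 8 at 28 dpn. Most of them thus entered period II through 1 dpn alone, and for those the filter favoured a fall. With low signals raised to the array median 7 of 7 were still called lower, by −3.34 (NPG4) to −0.67 (S100A12). NPG4, a protegrin of porcine neutrophils, had 11.62 ± 0.88 at 1 dpn and 13.44 ± 1.33 at 94 dpc. Of the megakaryocyte and platelet list 4 of 4 fell in period I. Of the proliferation list, 2 of 11 rose and 0 fell in period I (6 rose after quantile normalisation and 7 with array medians subtracted). In period II 10 of 11 fell, and 11 of 11 in period III, when 35.7% of all tested probe-sets were lower. The filter was met by 11 of 12 proliferation genes at 28 dpn and by 3 of 12 at 188 dpn. Most of them thus entered period III through 28 dpn alone, and for those the filter favoured a fall. With low signals raised to the array median 11 of 11 were still called lower in period III, by −2.89 (RRM2) to −0.69 (CCNB2). The summed signal of the granulocyte list ranged from 2131 to 59330 at 94 dpc, 2517 to 24881 at 1 dpn, 525 to 2327 at 28 dpn and 487 to 2258 at 188 dpn. That of the proliferation list ranged from 3891 to 13355, 4570 to 19868, 1867 to 10445 and 922 to 1561. The part of these cells in the stage differences of AHSP, HBM and RHCE was not tested.

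The genes that varied most like the 3 genes across the 16 fetuses were ranked by their correlation with the mean of the standardised values of AHSP, HBM and RHCE. Of 12254 probe-sets, 1.31% passed as positive and 0.0571% as negative at an adjusted permutation p at or below 0.05. The first 10 symbols were AQP1 (r = 0.983), DYRK3 (0.980), KLF1 (0.979), ALAS2 (0.970), TFDP2 (0.968), LOC100738720 (0.961), FECH (0.961), RGCC (0.958), BPGM (0.952) and RRM2 (0.948). Their rho lay between 0.944 and 0.974, and each had an adjusted permutation p of 0.00261. Without the 2 fetuses farthest from the median r was between 0.915 and 0.982. DYRK3 is a kinase of erythroid precursors, TFDP2 a dimerisation partner of E2F factors, RGCC a regulator of the cell cycle and RRM2 a subunit of ribonucleotide reductase, which supplies DNA precursors. The annotation gives LOC100738720 no name.

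Of these 10 genes 8 also fell in period I, as did 41.6% of all tested probe-sets. DYRK3 fell by 1.73 on the log2 scale, TFDP2 fell by 1.57 and LOC100738720 fell by 2.77. Each of the last 2 was above the array median in 1 of 14 piglets, DYRK3 in 4 of 14 and KLF1 in 6 of 14. These genes thus entered period I through 94 dpc alone, and for them the filter favoured a fall. With low signals raised to the array median the differences were −0.89 for TFDP2, −1.75 for LOC100738720, −1.46 for DYRK3 and −1.49 for KLF1. RGCC had 8.77 ± 0.61 at 1 dpn and 8.81 ± 0.90 at 94 dpc, did not pass in period I (q = 0.188 by limma), and rose by 1.97 in period II and by 0.85 in period III. RRM2 rose by 1.21 in period I, to 11.07 ± 0.68 at 1 dpn, against 9.86 ± 0.85 at 94 dpc. It fell by 1.36 and 3.35 in periods II and III (−2.89 in period III with low signals raised to the array median). RGCC and RRM2 were thus like the 3 genes in the order of fetuses but not in the change at birth.

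**Figure D4:**
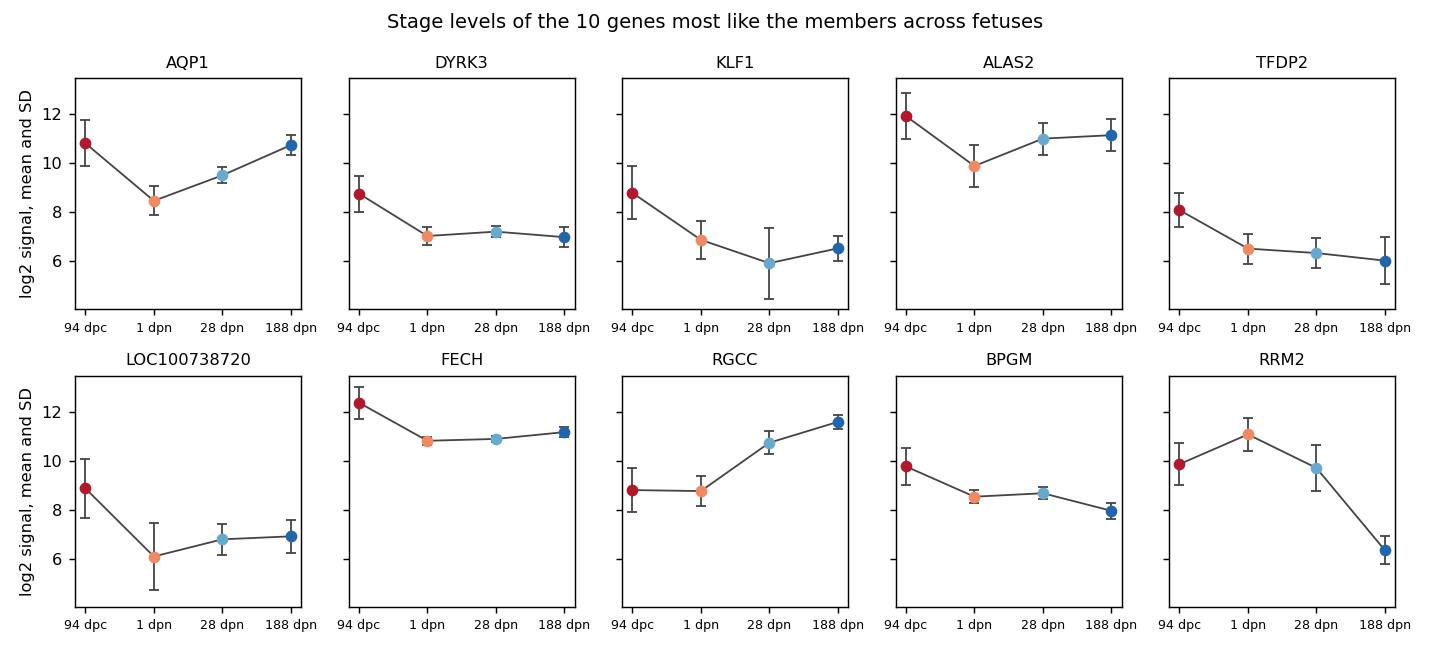
Mean log2 signal with SD (y axis) at the 4 stages (x axis) of the 10 genes with the highest correlation with AHSP, HBM and RHCE across fetuses, in order of r. ALAS2 and AQP1 were lowest at 1 dpn, RGCC was highest at 188 dpn and RRM2 was highest at 1 dpn.

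Of the 36 erythroid list genes tested across fetuses, 12 passed as positive (33.3%). These were 5 of 8 haem synthesis genes, 2 of 4 membrane genes, 1 of 3 transcription factors, 1 of 8 receptors and signalling genes and 3 of 12 enzymes and maturation genes. SLC25A37 (r = 0.943), UROD (0.941) and ALAD (0.862) were among them although UROD and ALAD were not called lower in period I. EPOR had r = 0.826 and TFRC r = 0.737, and TFRC did not pass (adjusted permutation p 0.0747). EPO had r = 0.109 and HBB r = 0.293, which did not pass either.

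Genes of other cells varied with the same fetuses. In the granulocyte list 7 of 8 genes passed as positive (87.5%), with NPG4 at r = 0.889 and S100A9 at 0.869, and in the proliferation list 6 of 11 (54.5%), with PCNA at 0.880. In the macrophage and hepatocyte lists 0 of 8 and 0 of 9 genes passed, also at an unadjusted p, and the r of hepatocyte genes lay between −0.443 and −0.200. Megakaryocyte genes had 0 of 4 past the threshold, but 3 of 4 had an unadjusted permutation p at or below 0.05. Their r was 0.710 for PPBP, 0.657 for ITGB3, 0.636 for ITGA2B and −0.192 for GP9. The part of granulocytes and dividing cells in the correlations among AHSP, HBM and RHCE was not tested.

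At 1 dpn 0 of 12254 probe-sets passed the same permutation test over 14 piglets after adjustment, although 1871 had an unadjusted p at or below 0.05, against 1115 at 94 dpc. Of the 10 genes named for the fetuses, ALAS2 had r = 0.853, DYRK3 0.631, AQP1 0.623, LOC100738720 0.478, BPGM 0.428, FECH 0.400, KLF1 0.343, TFDP2 0.004, RGCC −0.129 and RRM2 −0.164. Since RHCE lay below the array median after birth, the same 10 genes were also set against the mean of AHSP and HBM alone, over 30 relations. ALAS2 passed at 1 dpn (r = 0.875, rho 0.877, adjusted permutation p 0.0027) and at 188 dpn (r = 0.866, rho 0.774, adjusted permutation p 0.0006). It did not pass at 28 dpn (r = 0.482). Without the 2 farthest animals its r was 0.879 at 1 dpn and 0.814 at 188 dpn. AQP1 passed at 1 dpn (r = 0.698, adjusted permutation p 0.0459) and LOC100738720 at 28 dpn (r = 0.700, adjusted permutation p 0.0349), both by Pearson's r alone. The remaining relations did not pass.

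**Figure D5:**
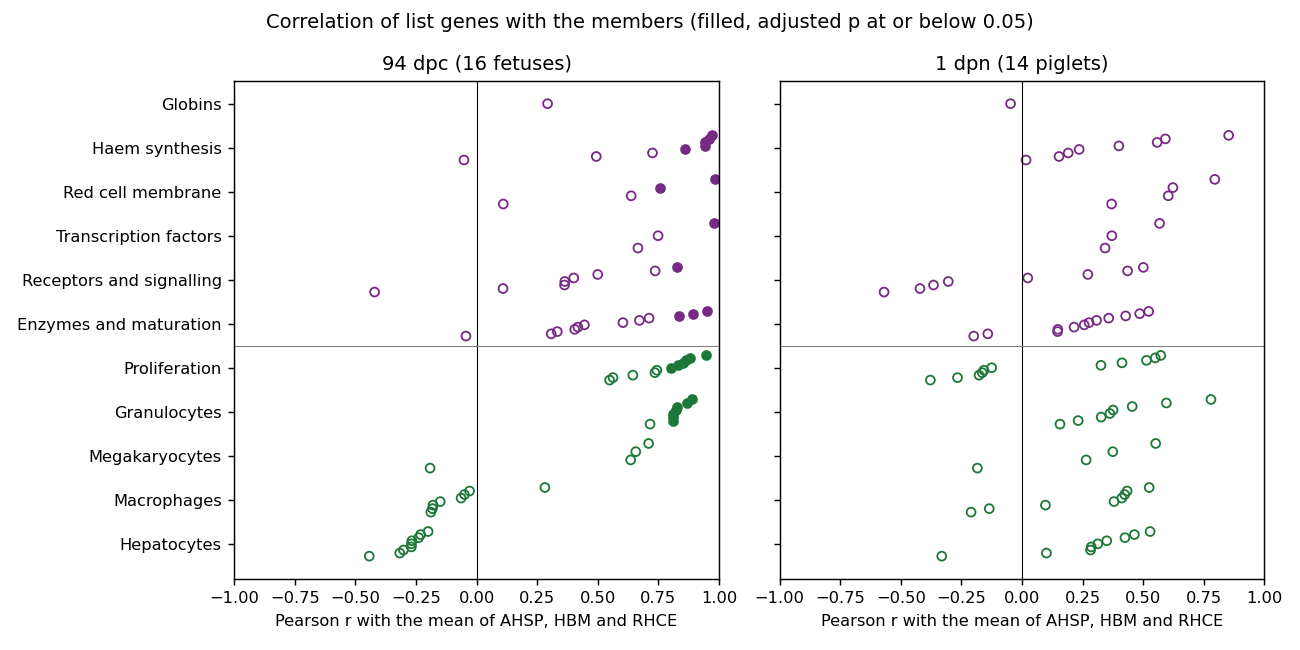
Pearson's r (x axis) of list genes with the mean of AHSP, HBM and RHCE over 16 fetuses (left) and 14 piglets at 1 dpn (right), by list (rows, with erythroid lists above the grey line and other cells below it), with filled points where the adjusted permutation p was at or below 0.05. At 94 dpc 12 of 36 erythroid genes and 7 of 8 granulocyte genes are filled, and at 1 dpn 0 points are filled.

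Over all 61 arrays, where differences between stages and between animals both enter, AHSP was most like FECH (r = 0.874), LOC100738720 (0.862) and ALAS2 (0.837) besides the other members. HBM was most like ALAS2 (0.890), SLC25A37 (0.850) and LOC100738720 (0.850). RHCE was most like DYRK3 (0.885), FECH (0.867) and HIPK1 (0.858), a nuclear kinase. Among the 3 genes r was 0.883 for AHSP with HBM, 0.791 for AHSP with RHCE and 0.744 for HBM with RHCE. These values describe arrays that share stage, scaling and RNA quality and have no p-value.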

How the data were processed

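Total RNA of LP livers was hybridised to the Affymetrix porcine genome array, 1 array per animal. The values used are the signal intensity of each probe-set as deposited by the authors. GCOS 1.1.1 is named in the submitters' processing notes, and every array has the same trimmed mean after leaving out 2% at each end. The study's methods describe GC-RMA values (log2), which were not used here. The array number limits precision, and no column of another sample was present.

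Intensities were converted to log2 without a pseudocount. Of 23999 probe-sets, 10069 had 1 symbol in the platform annotation, 198 several and 13732 none, and 10060 of the first were found in RefSeq by symbol. A gene of a list was represented by its probe-set of highest mean. A probe-set entered a period's test where 50% or more of the animals in either stage exceeded their array median and its SD was above 0.25. Tests were made with limma 3.58.1 in R 4.3.3, later minus earlier stage. A call required P and Storey q at or below 0.05. Sex, mother and weight, which the study's model included, are not in the labels.

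Correlations within a stage used Pearson's r and Spearman's rho with two-sided permutation p (100000 resamples) and Benjamini-Hochberg adjustment, in Python 3.11.15 with scipy 1.17.1. Both procedures were tested on simulated data with known changes. The genes named were the 3 members, every globin with a probe-set, up to 4 called genes of largest change per erythroid list and period, the 10 symbols most correlated with the members at 94 dpc, and 3 per member over all arrays. Genes named beyond this rule, such as UBAC1 and those of other cell types, were chosen after their values were seen. Members and lists were chosen with earlier results of these data known. Lists of stem and progenitor, B, T and NK cells were also fitted. Alternatives were quantile normalisation, subtraction of array medians, other filters, Benjamini-Hochberg adjustment, 1 fit of all stages, a pseudocount of 16, the array median as floor, array weights and averaging of all probe-sets per gene. Chosen after seeing the data were the exclusion of 6 arrays with outlying 3′ to 5′ differences, beyond 3 scaled median absolute deviations, and the mean of AHSP and HBM alone.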

Additional observations from a re-analysis of the deposited data

How the results depend on the processing

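AHSP stayed called higher in period III under all 12 alternatives (1.01 to 1.24), and the 3 fetal correlations between members stayed past the threshold under all 6 (0.978 to 0.994). The HBM difference in period III passed with array medians subtracted alone (0.348). The RHCE difference in period I was −3.37 with the array median as floor. With array medians subtracted the lower erythroid genes numbered 4 in period II, and in period III 16 were higher and 4 lower. After birth the AHSP with RHCE correlation at 1 dpn was 0.587 with the floor and passed, with RHCE above the floor in 1 of 14 piglets. It was −0.059 with array measures regressed out and −0.070 over the 12 piglets without outlying 3′ to 5′ differences. AHSP with HBM at 28 dpn passed at 0.602 with array measures regressed out. HBM with RHCE at 28 dpn was −0.050 after quantile normalisation and −0.342 without the 2 farthest arrays. With the floor, RHCE equalled the array median in all 16 pigs at 188 dpn. The values then found, −0.110 for AHSP and −0.279 for HBM, are their correlations with the array median and hold no RHCE signal. Averaging all probe-sets of a gene turned UBAC1 in period I (−0.315), PPOX in periods II (−0.143) and III (−0.130), STAT5A in II (−0.003) and III (0.018), EPB41 (−0.459) and UBE2H (0.022) in II. Subtracting array medians turned SLC11A2 (0.049) and UBE2O (0.044) in period II. The higher proliferation genes in period I, 2 in the report, numbered 6 after quantile normalisation and with array weights, 7 with array medians subtracted, and 1 without filters, with the filter at the 25th percentile, with Benjamini-Hochberg adjustment and with 1 fit of all stages. In period III 1 granulocyte gene was higher with array medians subtracted, and 1 was lower without filters, with the filter at the 25th percentile, with array weights and with probe-sets averaged. The cause of these changes was not tested. No paired analysis was possible because the labels give stages no shared replicate numbers. Groups held 14 to 16 animals, so no replicate was left out singly. Signals below the array median limit RHCE after birth, EPO at 94 dpc and 28 dpn and TFRC at 28 dpn, among others. KLF1 exceeded that median in 6 of 14 piglets and 5 of 15 weaners, DYRK3 in 4 of 14 piglets and RRM2 in 4 of 16 pigs at 188 dpn. Most granulocyte genes at 28 dpn and most proliferation genes at 188 dpn are limited in the same way.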

Other observations

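Of all tested probe-sets 26.1% were higher and 41.6% lower in period I, 28.9% and 41.4% in period II, and 18.3% and 35.7% in period III. The list of T and NK cells had no tested gene in period I, and 5 of 5 tested genes were called higher in period II. At 1 dpn 0 of the 7 genes with a probe-set reached the array median in 50% of the animals, so their log2 differences have no reliable size. With signals raised to that median 3 of 5 were called higher, among them GNLY, the granule protein granulysin (2.89), and CD8A (0.69), while CD2 was at −0.01. In period III 3 of 6 tested genes fell. Of the macrophage list 4 of 8 tested genes rose in period I and 2 fell, among them VCAM1, an adhesion molecule of the macrophages of erythroblast islands, which had a log2 mean of 11.14 at 1 dpn and fell by 2.08. FOLR2, a folate receptor of tissue macrophages, rose by 4.33 in period II, when 6 of 9 tested macrophage genes rose (5 of 9 with the floor), and 7 of 9 macrophage genes fell in period III, CD163, the scavenger receptor for haemoglobin, by 1.52. The haem-degrading enzyme HMOX1 rose in all 3 periods, by 0.40, 0.60 and 0.55. The list of stem and progenitor cells had 1 tested gene in period I, MEIS1, which fell by 0.51, and in period II CD34, 1 of 2 tested genes, was higher by 0.64 but not called with the floor (0.20). In period III 0 of 3 were called, and 1 of 3 with the floor. The B cell list had 0 tested genes in any period. Of the hepatocyte list 4 of 8 tested genes rose and 1 fell in period I, 1 of 8 rose and 6 fell in period II and 1 of 5 fell in period III. Of the megakaryocyte and platelet list 1 of 4 rose in period II, and 2 of 4 rose and 1 fell in period III.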
